A study of Mus musculus with 12 samples.

Results

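The 8 genes described here belong to the Notch pathway, with the receptors Notch1 and Notch2, the ligands Dll1, Dll4 and Jag1, and the genes Hes1, Hes6 and Nrarp, which are targets of the pathway or relatives of a target. They were chosen by name, and all 8 were found once each among the 55414 genes of the count table. Bulk RNA-seq was performed on cells sorted from small-intestinal crypts of naive C57BL/6J mice, in 12 libraries. The 4 groups of 3 libraries were WT Paneth, GRKO Paneth, WT non-Paneth and GRKO non-Paneth cells. GRKO mice (GRvillinKO) lack the glucocorticoid receptor, the product of Nr3c1, in cells that express villin, which is the epithelium and not the other cells of the gut, and WT mice served as controls. Neither the labels nor the methods describe the Cre construct behind the deletion. Paneth cells were enriched by FACS as CD24+ cKIT+ cells with medium to high side scatter and without CD31, CD45 and TER119, whereas no source used here describes how non-Paneth cells were gated. By the methods all mice were young adults, and the labels give no age per library. Genotypes were taken from the sample titles, because the genotype field of the labels lists all Paneth libraries as WT and all non-Paneth libraries as GRKO. The labels do not say whether the 3 libraries of a group came from separate mice, so that p-values measure the spread between these libraries, which may be technical.

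Notch signalling passes between neighbouring cells. A ligand of the Delta-like or Jagged family on one cell binds a Notch receptor on the next, the receptor is cleaved by ADAM proteases and then by gamma-secretase, and the freed intracellular domain joins the DNA-binding protein RBPJ to switch on targets such as Hes1 and Nrarp. In the crypt, cells that receive the signal stay progenitors or become absorptive, and cells that escape it express Atoh1 and become secretory. Paneth cells sit beside the stem cells and present Dll1 and Dll4 to them.

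Library totals lay between 11126297 and 15910292 counts, and the 8 genes had between 51 and 1432 counts per library, with Jag1 the lowest. All 8 passed the filter on low counts. Levels are given as CPM, counts relative to a common library size, after TMM scaling, which divides out differences in composition, and its factors lay between 0.656 and 0.826 in Paneth, between 1.2 and 1.22 in WT non-Paneth and between 1.46 and 1.5 in GRKO non-Paneth libraries. This scaling matters here, since scaling by library totals alone moved the median over all genes, as a log2 fold change, from 0.01 to -0.68 between WT Paneth and WT non-Paneth cells, from -0.08 to -1.05 between the GRKO fractions and from 0.02 to 0.31 between GRKO and WT non-Paneth cells. Nr3c1, the deleted gene, had 40.9, 50.4 and 54.1 CPM in WT Paneth and 7.98, 5.82 and 15.4 CPM in GRKO Paneth libraries, and 110, 126 and 131 CPM in WT non-Paneth against 20, 13.1 and 24.5 CPM in GRKO non-Paneth libraries. The log2 fold change was -2.31 in Paneth (SE 0.32, adjusted p = 0.0331) and -2.67 in non-Paneth cells (SE 0.30, adjusted p = 6.66e-05). All 8 genes of a Paneth list (Lyz1, Mmp7 and others) were higher in Paneth than in non-Paneth cells in both genotypes. At a false discovery rate of 5%, 24% of all genes tested were higher in WT and 17.9% in GRKO mice. Of 6 endothelial genes, Cdh5, Cldn5, Emcn and Kdr had no counts in any library, and the sum of the list was 1.21 to 2.65 CPM in GRKO Paneth libraries and at most 0.866 CPM in the other groups.

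Of the 8 genes, Notch1, Dll4, Jag1 and Nrarp lie on chromosome 2 (GRCm39), at 26347915 to 26406675 on the minus strand, 119156170 to 119166443 on the plus strand, 136923373 to 136958693 on the minus strand and 25070770 to 25073351 on the plus strand. Notch2 lies on chromosome 3 from 97920800 to 98057677 on the plus strand, Hes1 on chromosome 16 from 29882134 to 29886643 on the plus strand, Hes6 on chromosome 1 from 91339204 to 91342103 on the minus strand, and Dll1 on chromosome 17 from 15587276 to 15597134 on the minus strand. Nrarp has a single exon and Notch1 and Notch2 have 34 each in their canonical transcripts. The strand that was counted is not stated. Exons of Dll1 overlap those of Fam120b on the other strand, and how reads of the overlap were counted depends on that choice of strand. Fam120b had levels close to those of Dll1 (30.4 to 50.6 CPM for Dll1 and 32.9 to 52.7 CPM for Fam120b over the 12 libraries). Most of the exon of Nrarp lies opposite the lncRNA Gm38287, which had at most 2 counts in a library.

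RBPJ recognises the core letters TGGGAA. In the window from 250 bases before to 50 bases after the start of the canonical transcript, searched on both strands, 25.9% of 21627 protein-coding genes hold at least 1 copy and 4.12% hold 2 or more. Among the 8 genes only Hes1 has the core in this window, with 2 copies that begin 49 and 35 bases before the start (at -49 and -35) on the strand of the gene. The first copy belongs to the longer form GTGGGAA, which 6.33% of windows hold. The 250 bases before the start are shown for Hes1, Nrarp and Notch1, the 3 genes for which the effect of the genotype differed between the cell fractions, 5′ to 3′ on the strand of each gene (GRCm39), with the core in capitals. The letters describe the windows, and no binding was measured.
Hes1, chr16:29883877-29884126, plus strand: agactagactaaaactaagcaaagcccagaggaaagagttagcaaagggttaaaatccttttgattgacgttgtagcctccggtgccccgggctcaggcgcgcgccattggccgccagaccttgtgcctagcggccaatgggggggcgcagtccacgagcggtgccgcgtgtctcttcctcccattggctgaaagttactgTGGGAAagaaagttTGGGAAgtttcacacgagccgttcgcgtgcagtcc
Nrarp, chr2:25070520-25070769, plus strand: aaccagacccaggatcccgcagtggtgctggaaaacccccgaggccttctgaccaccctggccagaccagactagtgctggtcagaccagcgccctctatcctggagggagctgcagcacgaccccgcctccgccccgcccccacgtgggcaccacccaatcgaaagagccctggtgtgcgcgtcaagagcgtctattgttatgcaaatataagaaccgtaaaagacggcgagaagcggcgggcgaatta
Notch1, chr2:26393835-26394084, minus strand: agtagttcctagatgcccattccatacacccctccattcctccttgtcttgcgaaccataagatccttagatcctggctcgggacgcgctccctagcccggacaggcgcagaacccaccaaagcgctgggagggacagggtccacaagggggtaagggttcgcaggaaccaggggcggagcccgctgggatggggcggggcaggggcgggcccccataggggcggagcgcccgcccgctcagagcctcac

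To compare the genes with each other, TMM-scaled CPM were divided by exonic length. This length counts every base in an exon of any annotated transcript. For Hes6, with 4 exons in its canonical transcript, it is 2875 bases in a gene of 2.9 kb, so that its levels per kb may be too low. Hes6, a relative of Hes1 that counteracts it, had the highest level per kb of the 8 genes in 3 groups, with 28 ± 2.93 CPM per kb in WT Paneth cells, 26.4 ± 7.17 in GRKO Paneth cells and 13.6 ± 1.88 in WT non-Paneth cells (SD, n = 3). In GRKO non-Paneth cells Nrarp was highest, with 18.2 ± 0.741 CPM per kb, followed by Hes6 and Hes1 with 15.7 each. That order depends on the exonic lengths, since the means there were 46.9 CPM for Nrarp, 45.1 CPM for Hes6 and 52.9 CPM for Hes1. Nrarp encodes a small ankyrin repeat protein that limits the signal of the receptors. Notch2 and Jag1 were the lowest of the 8 in every group, with Notch2 between 1.39 and 2.46 and Jag1 between 1.21 and 2.18 CPM per kb as group means. Among 13036 genes ranked per kb, Hes6 was at position 852 in WT Paneth and at 2231 in WT non-Paneth cells. Dll4 was at position 2889 in WT Paneth cells and at 5841 in WT non-Paneth cells.

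**Figure D1:**
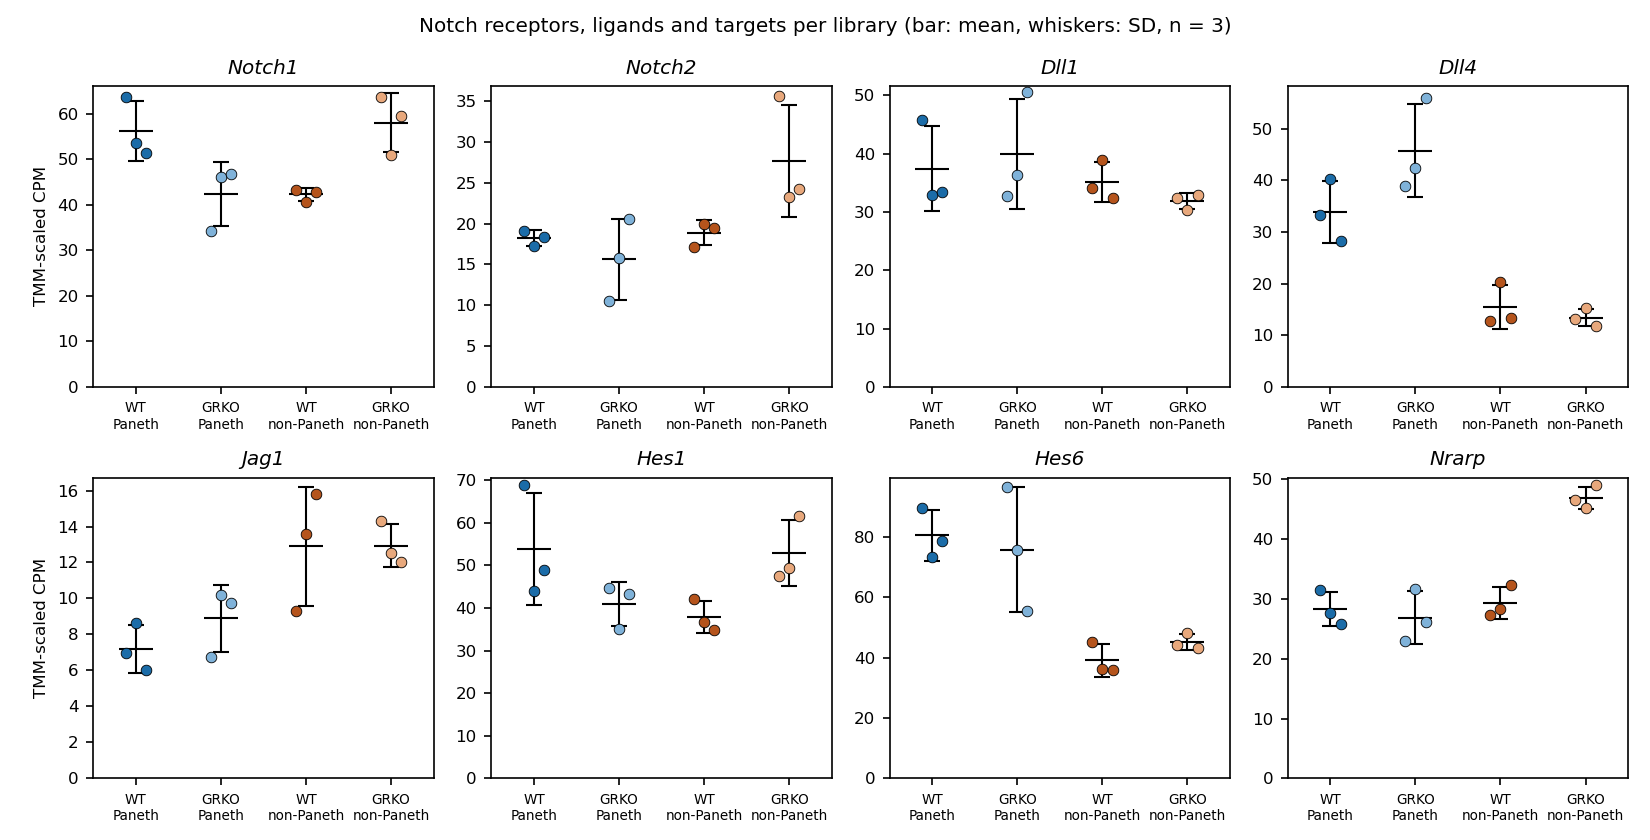
TMM-scaled CPM of the 8 genes (vertical axis) in each library of the 4 groups (horizontal axis), where points are libraries, bars are means and whiskers are SD (n = 3). At this scaling Dll4 and Hes6 lie higher in both Paneth groups than in both non-Paneth groups, whereas library totals place Hes6 of GRKO mice at a log2 fold change of -0.25, and Nrarp lies at 45.3 to 49.0 CPM in GRKO non-Paneth libraries against 22.9 to 32.3 CPM in the other 9.

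The comparison of Paneth with non-Paneth cells asks where the parts of the pathway are transcribed in the crypt. In WT mice, Notch1, Dll4, Hes1 and Hes6 were higher and Jag1 was lower in Paneth cells after TMM scaling, while Notch1 and Hes1 had the opposite sign, without a call, by library totals. Thus 5 of the 8 genes passed a false discovery rate of 5% (4 higher and 1 lower), beside 50.7% of all 13057 genes tested (24% higher and 26.7% lower), a share not far from that of the 8 genes. By library totals 4 of the 8 were called and none of them was higher, since Dll4 and Hes6 lost their calls and Notch2, Dll1 and Nrarp were called lower beside Jag1. Their median log2 fold change was 0.25, and that of all genes tested was 0.01. In GRKO mice, Dll4 and Hes6 (the latter not by library totals, which gave -0.25) were again higher, while Notch1, Notch2 and Nrarp were lower in Paneth cells. These were again 5 of 8 genes, where 39.2% of all genes passed (17.9% higher and 21.2% lower). By library totals 7 were called, of which only Dll4 was higher, with Dll1, Jag1 and Hes1 called lower as well. The shares of all genes given here are after TMM scaling, and library totals also moved the median of all genes down in both comparisons. After TMM scaling the median was -0.41 for the 8 genes and -0.08 for all genes.

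The comparison of GRKO with WT mice asks what changes when the epithelium lacks the glucocorticoid receptor. In non-Paneth cells, Notch1, Notch2, Hes1 and Nrarp were higher in GRKO than in WT libraries and none was lower, so that 4 of 8 genes passed, beside 37.3% of all genes (17.5% higher and 19.8% lower). The count was 2 with DESeq2, with RLE factors or with scaling without Lyz1 and Defa genes, 5 by library totals, and 1 to 2 without any 1 of the 6 libraries. Library totals also moved the median of all genes up, and the shares of all genes are after TMM scaling. After TMM scaling the median log2 fold change of the 8 genes was 0.34, against 0.02 for all genes. In Paneth cells none of the 8 genes passed, in edgeR as well as in DESeq2, beside 3.22% of all genes in edgeR (1.7% higher and 1.52% lower). An unadjusted p under 0.05 in edgeR was found for 3 of the 8 (Notch1, Dll4 and Hes1), beside 3492 of all 13057 genes tested. For Notch1, Hes1 and Nrarp the genotype effect was lower in Paneth than in non-Paneth cells, 3 of 8 genes in the test of this difference (the interaction), which 18.7% of all genes passed (11.5% with a higher and 7.27% with a lower effect in Paneth cells). The comparisons share groups, so that they are not independent of each other. In bulk samples, fewer cells of a type and less RNA per cell cannot be told apart.

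**Figure D2:**
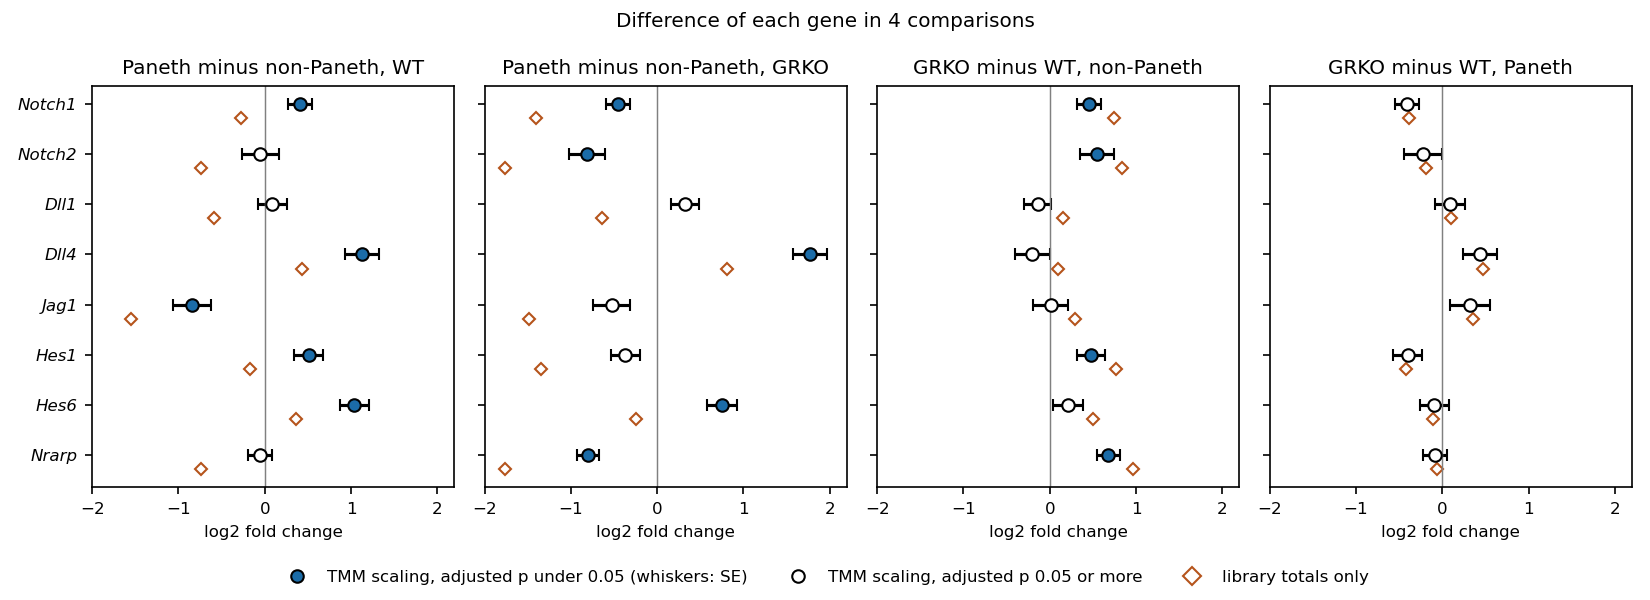
Log2 fold change (horizontal axis) of each of the 8 genes (vertical axis) in 4 comparisons. Filled circles passed an adjusted p of 0.05 and open circles did not, with SE as whiskers, and diamonds give the value when libraries are scaled by their totals only. The diamonds lie to the left of the circles in both comparisons of fractions (Dll4 in WT at 0.43 instead of 1.13) and to the right between the genotypes of non-Paneth cells (Nrarp at 0.96 instead of 0.68).

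Notch1 encodes the receptor that carries most of the Notch signal of crypt progenitors. Its level was 63.7, 53.6 and 51.3 CPM in WT Paneth, 34.3, 46.0 and 46.7 CPM in GRKO Paneth, 43.3, 40.7 and 42.8 CPM in WT non-Paneth and 63.7, 50.9 and 59.5 CPM in GRKO non-Paneth libraries. The WT Paneth and GRKO non-Paneth groups were thus the high ones and overlapped each other, and both stood apart from the WT non-Paneth and GRKO Paneth groups, which overlapped in turn. In WT mice, Notch1 was 1.33-fold higher in Paneth than in non-Paneth cells (log2 0.41, SE 0.14, adjusted p = 0.021), whereas scaling by library totals gave a log2 fold change of -0.28 (adjusted p = 0.197). The higher value in WT Paneth cells was no longer past the threshold without WT Paneth replicate 1 (log2 0.31, adjusted p = 0.0854) or without the filter on low counts (log2 0.36, adjusted p = 0.0649). In GRKO mice, Notch1 was 1.37-fold lower in Paneth cells (log2 -0.45, SE 0.14, adjusted p = 0.0164). This call was lost with only the groups compared in the fit (adjusted p = 0.0605), and without GRKO Paneth replicate 1 (adjusted p = 0.0661), GRKO non-Paneth replicate 1 (adjusted p = 0.178) or GRKO non-Paneth replicate 3 (adjusted p = 0.123).

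Between genotypes, Notch1 was 1.37-fold higher in GRKO than in WT non-Paneth cells (log2 0.46, SE 0.14, adjusted p = 0.0159), and the value in Paneth cells was -0.41 on the log2 scale (SE 0.14, adjusted p = 0.0896). The 3 GRKO non-Paneth libraries were all above the 3 WT non-Paneth libraries. With 1 library left out, the adjusted p in non-Paneth cells was 0.0273 without GRKO non-Paneth replicate 2 and between 0.06 and 0.112 without any other of the 6 libraries. The difference between the genotype effects was -0.86 on the log2 scale (SE 0.19, adjusted p = 0.00765), and it stayed past the threshold in all 18 alternatives, with values between -1.13 and -0.74.

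Notch2, the other receptor of the crypt epithelium, was less abundant, with 19.1, 17.2 and 18.3 CPM in WT Paneth, 10.5, 15.8 and 20.5 CPM in GRKO Paneth, 17.1, 20 and 19.5 CPM in WT non-Paneth and 35.6, 23.2 and 24.2 CPM in GRKO non-Paneth libraries. Only the GRKO non-Paneth group lay above the other 3, and its replicate 1 was the highest library. The fractions of WT mice had a log2 fold change of -0.05 (SE 0.21, adjusted p = 0.864), or -0.74 (adjusted p = 0.0129) by library totals. In GRKO mice, Notch2 was 1.76-fold lower in Paneth than in non-Paneth cells (log2 -0.81, SE 0.21, adjusted p = 0.00598), and without GRKO non-Paneth replicate 1 the call was lost (log2 -0.50, adjusted p = 0.0816). It was 1.46-fold higher in GRKO than in WT non-Paneth cells (log2 0.55, SE 0.20, adjusted p = 0.0442), a call that did not hold without any 1 of the 6 libraries (adjusted p between 0.0558 and 0.323) and in DESeq2 (adjusted p = 0.0761). The interaction of Notch2 was -0.77 (SE 0.30, adjusted p = 0.0843). Per kb, Notch1 exceeded Notch2 in all 12 libraries, by 2.21 to 2.64 times in WT Paneth, 1.80 to 2.58 times in GRKO Paneth, 1.61 to 2 times in WT non-Paneth and 1.42 to 1.95 times in GRKO non-Paneth libraries.

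Of the ligands Dll1, Dll4 and Jag1, only Dll4 was called higher in Paneth cells after TMM scaling, in both genotypes, while Jag1 was called lower in WT mice. It had 33.2, 40.2 and 28.3 CPM in WT Paneth and 38.9, 42.3 and 56.0 CPM in GRKO Paneth libraries, against 12.7, 20.3 and 13.3 CPM in WT non-Paneth and 13.2, 15.2 and 11.8 CPM in GRKO non-Paneth libraries. The lowest of the 6 Paneth libraries was above the highest of the 6 non-Paneth libraries. Dll4 was 2.19-fold higher in Paneth cells of WT mice (log2 1.13, SE 0.20, adjusted p = 0.000234) and 3.42-fold higher in those of GRKO mice (log2 1.77, SE 0.20, adjusted p = 6.48e-06). By library totals, the values were 0.43 (adjusted p = 0.0844) and 0.81 (adjusted p = 0.0021), so that the call in WT mice depended on the scaling. Neither fraction gave a call between genotypes, with a log2 fold change of 0.44 in Paneth (SE 0.20, adjusted p = 0.171) and -0.20 in non-Paneth cells (SE 0.20, adjusted p = 0.449). The interaction was 0.64 (SE 0.28, adjusted p = 0.123).

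Dll1, the partner of Dll4 in keeping stem cells, showed no such difference. It had 45.8, 33.0 and 33.5 CPM in WT Paneth, 32.8, 36.3 and 50.6 CPM in GRKO Paneth, 34.1, 39.0 and 32.4 CPM in WT non-Paneth and 32.4, 30.4 and 32.9 CPM in GRKO non-Paneth libraries. All 4 groups overlapped their neighbours in the order of the levels. The log2 fold change between Paneth and non-Paneth cells was 0.09 in WT (SE 0.17, adjusted p = 0.665) and 0.32 in GRKO mice (SE 0.16, adjusted p = 0.133), and by library totals it was -0.59 (adjusted p = 0.0209) and -0.64 (adjusted p = 0.0105), so that its direction changed with the scaling. Between genotypes the value was 0.09 in Paneth (SE 0.17, adjusted p = 0.76) and -0.14 in non-Paneth cells (SE 0.16, adjusted p = 0.527).

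Jag1, a ligand of the Jagged family, was the least abundant ligand, with 6.94, 8.66 and 6.04 CPM in WT Paneth and 6.77, 10.2 and 9.75 CPM in GRKO Paneth libraries, and with 9.29, 13.6 and 15.8 CPM in WT non-Paneth and 14.3, 12.5 and 12 CPM in GRKO non-Paneth libraries. In each genotype, all Paneth libraries were below all non-Paneth libraries. Jag1 was 1.79-fold lower in WT Paneth than in WT non-Paneth cells (log2 -0.84, SE 0.22, adjusted p = 0.00499), and this call held under all 13 alternatives with values between -1.55 and -0.59. In GRKO mice the value was -0.53 (SE 0.21, adjusted p = 0.0612), and it passed the threshold by library totals (log2 -1.49, adjusted p = 2.32e-05), without the filter on low counts (log2 -0.60, adjusted p = 0.0175) and with a replicate block (adjusted p = 0.0438). Between genotypes, the log2 fold change was 0.32 in Paneth (SE 0.23, adjusted p = 0.388) and 0.01 in non-Paneth cells (SE 0.20, adjusted p = 0.984).

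A ratio of genes within a library does not depend on the scaling of libraries. The ratio of Dll1 to Dll4, both per kb, was 1.10, 0.654 and 0.942 in WT Paneth and 0.670, 0.683 and 0.718 in GRKO Paneth libraries. Among non-Paneth libraries it was 2.14, 1.53 and 1.93 for WT mice, and for GRKO mice 1.95, 1.59 and 2.21. Thus all 6 Paneth libraries were below all 6 non-Paneth libraries. Per kb, Dll4 exceeded Dll1 in 5 of the 6 Paneth libraries, all but WT replicate 1, and Dll1 exceeded Dll4 in all 6 non-Paneth libraries. Which of them is higher depends on the exonic lengths, 4960 bases for Dll1 and 3947 for Dll4. In CPM, Dll1 was above Dll4 in WT Paneth replicate 3 as well (33.5 against 28.3). Dll4 made up 49.5 ± 5.64% of the summed level per kb of Dll1, Dll4 and Jag1 in WT Paneth, 55 ± 0.907% in GRKO Paneth, 29.4 ± 3.68% in WT non-Paneth and 28.2 ± 3.18% in GRKO non-Paneth cells (SD, n = 3). The share of Jag1 was 6.97 ± 0.89% in WT Paneth and 16.5 ± 4.08% in WT non-Paneth cells. These ratios were chosen after the levels had been seen, and no test was made on them.

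**Figure D3:**
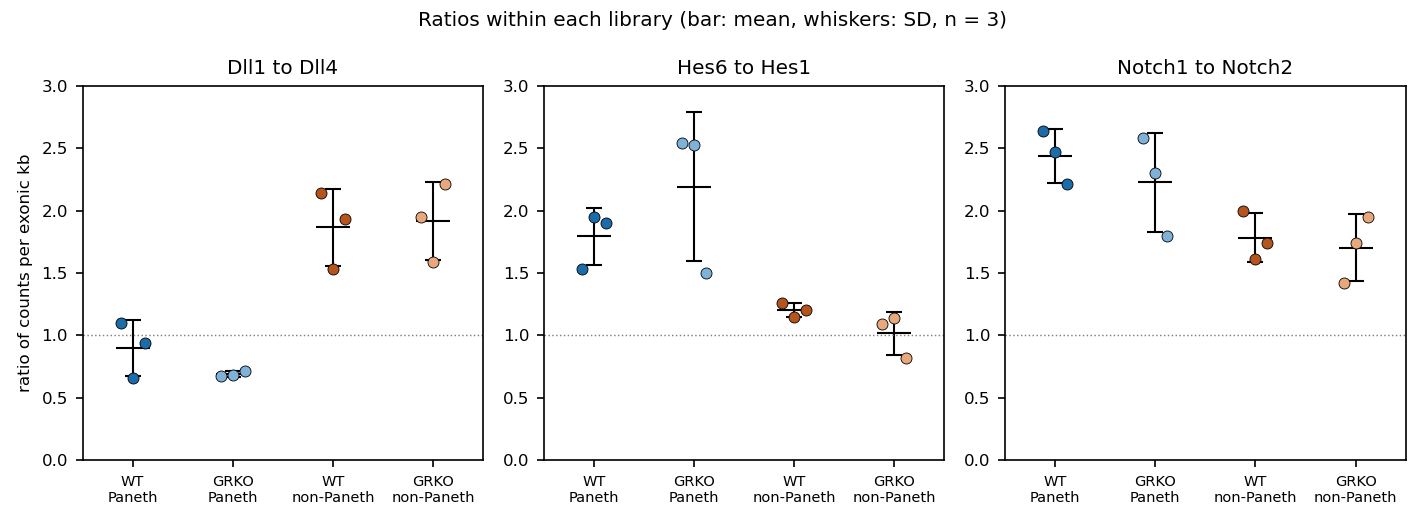
Ratio of counts per exonic kb (vertical axis) of Dll1 to Dll4, Hes6 to Hes1 and Notch1 to Notch2 within each library of the 4 groups, with means as bars and SD as whiskers (n = 3), and a dotted line where both genes are equal. Dll1 to Dll4 lies at 0.654 to 1.10 in the 6 Paneth and at 1.53 to 2.21 in the 6 non-Paneth libraries.

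Hes1, the repressor that Notch induces and that silences Atoh1, had 68.9, 44.1 and 48.8 CPM in WT Paneth, 44.6, 35.1 and 43.3 CPM in GRKO Paneth, 42.1, 36.8 and 34.9 CPM in WT non-Paneth and 47.5, 49.4 and 61.7 CPM in GRKO non-Paneth libraries. WT Paneth replicate 1 was the highest of the 12, and the groups that were high for Notch1, WT Paneth and GRKO non-Paneth, were high for Hes1 as well, although the lowest WT Paneth library fell within the range of the GRKO Paneth group. In WT mice, Hes1 was 1.42-fold higher in Paneth than in non-Paneth cells (log2 0.51, SE 0.17, adjusted p = 0.0187), whereas library totals gave -0.17 (adjusted p = 0.476) and the fit without WT Paneth replicate 1 gave 0.29 (adjusted p = 0.123). In GRKO mice the value was -0.37 (SE 0.17, adjusted p = 0.0928), and it passed the threshold by library totals (log2 -1.35, adjusted p = 1.45e-05), without the filter on low counts (log2 -0.44, adjusted p = 0.022) and with a replicate block (adjusted p = 0.037).

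Hes1 was 1.39-fold higher in GRKO than in WT non-Paneth cells (log2 0.48, SE 0.16, adjusted p = 0.0324), with no overlap of the libraries. The call was lost without any 1 of the 6 libraries, with adjusted p between 0.0687 and 0.245, and in DESeq2, with an adjusted p of 0.0641. In Paneth cells the log2 fold change was -0.40 (SE 0.17, adjusted p = 0.149). The difference between the genotype effects was -0.88 (SE 0.24, adjusted p = 0.0186), and its adjusted p rose to between 0.0539 and 0.0665 without GRKO Paneth replicate 2, WT non-Paneth replicate 2, WT non-Paneth replicate 3 or GRKO non-Paneth replicate 3.

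Nrarp, whose product limits Notch signalling in a feedback loop, was the one of the 8 genes whose difference between genotypes held under every alternative run. It had 46.5, 45.3 and 49.0 CPM in GRKO non-Paneth libraries, and 27.4, 28.3 and 32.3 CPM in WT non-Paneth, 31.5, 27.7 and 25.9 CPM in WT Paneth and 22.9, 31.7 and 26.1 CPM in GRKO Paneth libraries. The GRKO non-Paneth libraries were above all others, and the other 3 groups overlapped. Nrarp was 1.60-fold higher in GRKO than in WT non-Paneth cells (log2 0.68, SE 0.13, adjusted p = 0.00112), and over the 13 alternatives its values lay between 0.57 and 0.96, with adjusted p up to 0.0104. In GRKO mice it was 1.74-fold lower in Paneth than in non-Paneth cells (log2 -0.80, SE 0.13, adjusted p = 0.000239), which also held in all 13 alternatives. In WT mice the fractions had a log2 fold change of -0.05 (SE 0.14, adjusted p = 0.801), or -0.74 (adjusted p = 0.00199) by library totals. The genotype effect in Paneth cells was -0.08 (SE 0.14, adjusted p = 0.749), and the interaction was -0.75 (SE 0.19, adjusted p = 0.0138).

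Hes6 had 89.7, 73.2 and 78.7 CPM in WT Paneth and 96.5, 75.5 and 55.3 CPM in GRKO Paneth libraries, against 45.3, 36.1 and 35.8 CPM in WT non-Paneth and 44.1, 48.1 and 43.1 CPM in GRKO non-Paneth libraries. As for Dll4, all 6 Paneth libraries were above all 6 non-Paneth libraries. Hes6 was 2.06-fold higher in Paneth cells of WT mice (log2 1.04, SE 0.17, adjusted p = 0.000113) and 1.68-fold higher in those of GRKO mice (log2 0.75, SE 0.17, adjusted p = 0.00261), whereas library totals gave 0.36 (adjusted p = 0.0897) and -0.25 (adjusted p = 0.206). Genotype effects were -0.09 in Paneth (SE 0.17, adjusted p = 0.76) and 0.21 in non-Paneth cells (SE 0.17, adjusted p = 0.356). Within a library, Hes6 to Hes1 per kb was 1.5 to 2.54 in the 6 Paneth and 0.82 to 1.26 in the 6 non-Paneth libraries.

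The wider pathway was described with a list of 66 genes, the 8 genes included, of which 55 were tested. The 11 others (Notch3, Dlk1, Dlk2, Mfng, Aph1c, Numbl, Dtx1, Hes3, Hes5, Hey1 and Hey2) had too few counts. Between the WT fractions, 20 genes were higher and 17 lower in Paneth cells (67.3%, beside 50.7% of all genes), with a median log2 fold change of 0.04, while by library totals 6 of 38 calls were higher. Between the GRKO fractions, 14 were higher and 14 lower (50.9%, beside 39.2% of all genes), with a median of -0.08, and 6 of 48 calls were higher by library totals. Library totals moved the median of all genes down in both comparisons, and the shares of all genes are after TMM scaling.

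Besides Dll4, the Paneth cells had higher levels of further ligands and targets. Dll3, a ligand that acts inside the cell and does not activate receptors on neighbours, had 4.58 to 6.46 CPM in WT Paneth and 9.26 to 13.7 CPM in GRKO Paneth libraries, and only 2 and 17 counts in all over the 3 WT and 3 GRKO non-Paneth libraries. The ratio of the groups was 151 in WT (95% interval from counting 41 to 1260) and 45.1 in GRKO mice (27.8 to 78.4). Heyl, a target of the hairy family, had 98 counts over the WT Paneth libraries and none in WT non-Paneth libraries, which with a floor of 3 counts over the group makes it at least 62.3-fold higher. In GRKO mice the ratio of Heyl was 65.8 (25 to 246). Hes7 had 32 counts over the WT Paneth and 3 over the WT non-Paneth libraries (ratio 20.3, 6.37 to 104), and in GRKO mice it was at least 39.3-fold higher in Paneth cells. These intervals and floors cover counting error only.

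Notch4, a receptor known from endothelium, was higher in Paneth cells in both genotypes, with log2 fold changes of 2.11 in WT (SE 0.21, adjusted p = 9.86e-07) and 2.03 in GRKO mice (SE 0.21, adjusted p = 2.55e-06). Its 6 Paneth libraries lay between 10.8 and 18.2 CPM and its 6 non-Paneth libraries between 3.16 and 4.01 CPM. Of the endothelial list, Tek was the 1 gene tested. It was 6.45-fold higher in GRKO Paneth than in GRKO non-Paneth cells (adjusted p = 0.00335), with a log2 fold change of 1.51 in WT mice (adjusted p = 0.157). Cdh5, Cldn5, Emcn and Kdr had no counts in any library. The whole list summed to 0.19 to 0.866 CPM in WT Paneth and 1.21 to 2.65 CPM in GRKO Paneth libraries. The part of endothelial cells in the level of Notch4 was not tested. Lfng, a glycosyltransferase that makes receptors favour Delta-like ligands, was 3.64-fold higher in WT Paneth cells (log2 1.87, SE 0.18, adjusted p = 4.63e-07), while Rfng of the same family was 2.48-fold lower (log2 -1.31, SE 0.18, adjusted p = 2.15e-05). The ubiquitin ligases of the Deltex and Neuralized families, which act on receptors and ligands, went both ways, with Dtx3 (log2 2.50) and Neurl1a (log2 1.84) higher and Dtx3l lower (log2 -2.03). Numb, which removes receptors from the membrane, was 3.10-fold lower (log2 -1.63, SE 0.16, adjusted p = 8.46e-07). Hes2, another Hes gene, was 15-fold lower in WT Paneth (log2 -3.90, SE 0.33, adjusted p = 1.48e-07) and 12.6-fold lower in GRKO Paneth cells (log2 -3.66, SE 0.41, adjusted p = 5.32e-06). Of the 8 genes tested that cleave the receptor, 4 were lower in WT Paneth cells, among them the protease Adam10 (log2 -0.89) and the gamma-secretase subunits Ncstn (log2 -0.70) and Aph1a (log2 -0.65), and only Psen2 was higher (log2 0.57). These 5 calls make 62.5% of the 8 genes, beside 50.7% of all genes (26.7% lower). Between the GRKO fractions, 3 of the 8 were higher and 3 lower (75%, beside 39.2% of all genes), with a median of 0.07. Rbpj, the DNA-binding partner of the receptor, was at 11.5 to 16.5 CPM in WT Paneth and 12.4 to 14.7 CPM in WT non-Paneth libraries (log2 0.12, SE 0.16, adjusted p = 0.56).

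Between GRKO and WT non-Paneth cells, 25 of 29 calls of the list were higher by library totals, which also moved the median of all genes up. After TMM scaling, 15 genes of the list were higher and 8 lower (41.8%, beside 37.3% of all genes), with a median of 0.13. The higher ones included Lfng (log2 0.97, SE 0.17, adjusted p = 0.000629), the ligands Dll3, with 17 against 2 counts over 3 libraries (adjusted p = 0.0118), and Jag2 (log2 1.21, SE 0.39, adjusted p = 0.0245), the cofactors Kat2a (log2 0.82) and Hdac2 (log2 0.71), and the ubiquitin ligase Dtx4 (log2 0.74). The lower ones included Hes2 (log2 -1.85, SE 0.26, adjusted p = 0.000102), the ubiquitin ligases Mib2 (log2 -1.06) and Neurl3 (log2 -0.83), Numb (log2 -0.71) and Rfng (log2 -0.84). None of the 8 genes that cleave the receptor passed. Leaving out 1 library gave 10 to 16 calls instead of 23. Between GRKO and WT Paneth cells, 2 genes of the list were higher and none was lower (3.64% of 55, beside 3.22% of all genes). Aak1, a kinase of endocytosis, was among the higher ones (log2 0.85, SE 0.16, adjusted p = 0.0382). Without 1 library, between 0 and 8 genes were called in that comparison, and none was called without WT Paneth replicate 1, GRKO Paneth replicate 2 or GRKO Paneth replicate 3.

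**Figure D4:**
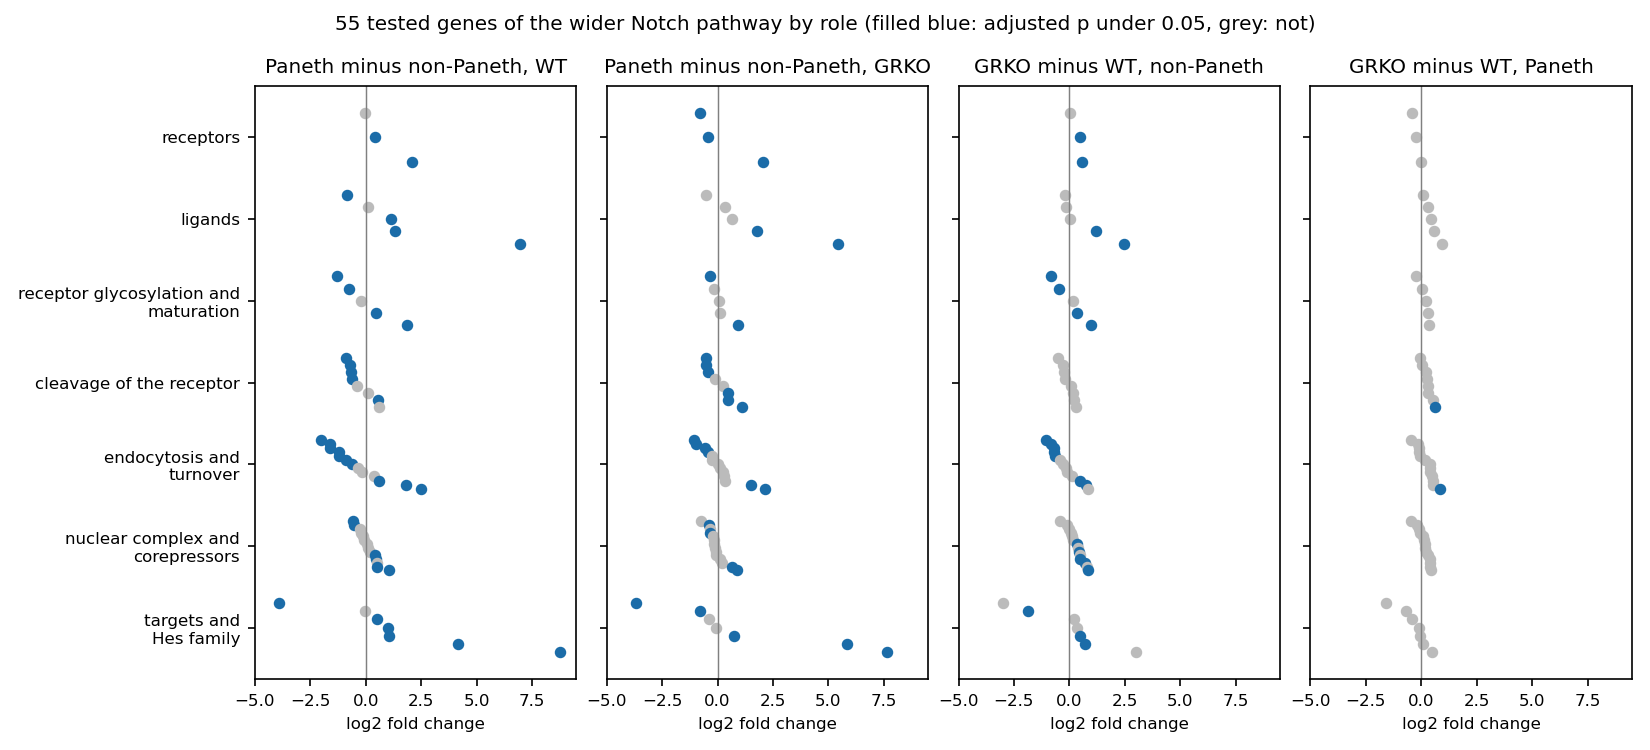
Log2 fold change (horizontal axis) of the 55 tested genes of the wider list by role (vertical axis) in 4 comparisons, where each point is a gene, blue with an adjusted p under 0.05 and grey otherwise. The widest spread is among ligands and targets between the fractions, where Dll3, Heyl and Hes7 lie far to the right and Hes2 to the left, with fitted values for Heyl, Dll3 and Hes7 that rest on few counts in non-Paneth cells, and 2 points are blue between GRKO and WT Paneth cells.

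Markers of crypt cell types were compared as well, and they were counted after TMM scaling only. Between GRKO and WT non-Paneth cells, 37.3% of all genes passed the threshold (17.5% higher and 19.8% lower). In GRKO non-Paneth cells, 6 of 6 proliferation genes (Mki67, Top2a and others) were higher than in WT, with a summed level of 1290 to 1360 CPM against 764 to 871 CPM, and so were 4 of 7 stem cell genes. The sum of all 7 stem cell genes (4610 to 5920 CPM against 3560 to 4810 CPM) was mostly Olfm4, with means of 4680 and 3640 CPM. Olfm4 was not among the 4 (log2 0.36, adjusted p = 0.149), and it is also on the list of the wider pathway. Enterocyte genes summed to 4690 to 5960 CPM in GRKO and to 23700 to 26200 CPM in WT non-Paneth cells, with 3 of 8 past the threshold. All 7 tuft cell genes were higher, with 83.9 to 353 CPM against 4.46 to 11.5 CPM, and 2 of 7 goblet genes were lower. Of 9 enteroendocrine genes 2 were higher, with a sum of 370 to 553 CPM against 221 to 591 CPM. Immune genes summed to 447 to 1640 CPM in GRKO and 2940 to 3230 CPM in WT non-Paneth cells, with none of the 5 tested past the threshold. Proliferation and tuft sums were thus higher in GRKO non-Paneth libraries, as were Notch1, Notch2, Hes1 and Nrarp, whereas enterocyte and immune sums were lower. Stem, goblet and enteroendocrine sums overlapped between the genotypes. The part of these cell types in the differences of Notch1, Notch2, Hes1 and Nrarp was not tested.

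Between the fractions of WT mice, 24% of all genes were called higher and 26.7% lower in Paneth cells. For GRKO mice these shares were 17.9% and 21.2%. All 7 tuft cell genes were higher in Paneth than in non-Paneth libraries in both genotypes. They summed to 230 to 587 CPM in WT Paneth and 522 to 1540 CPM in GRKO Paneth libraries. All 7 stem cell genes were higher in WT Paneth than in WT non-Paneth cells, and 2 of 7 in GRKO mice. Their sum in WT Paneth libraries, 7690 to 8320 CPM, was mostly Olfm4, with a mean of 7220 CPM. Proliferation genes were lower in GRKO Paneth than in GRKO non-Paneth cells (6 of 6), whereas 2 of 6 were higher in WT Paneth cells. Enterocyte genes were lower in Paneth cells, 8 of 8 in WT mice (576 to 2160 CPM against 23700 to 26200 CPM) and 7 of 8 in GRKO mice (744 to 1000 CPM against 4690 to 5960 CPM), and so were 5 of 9 enteroendocrine genes in WT and 7 of 9 in GRKO mice. For the interaction, 5 of 6 proliferation genes and 6 of 7 stem cell genes were lower, beside 7.27% of all genes. This was the direction of Notch1, Hes1 and Nrarp. Atoh1, which Hes1 represses, had 52.3 to 94.9 CPM in WT Paneth and 93.1 to 115 CPM in GRKO Paneth libraries. In non-Paneth libraries it had 12.1 to 18.5 CPM in WT and 11.5 to 24 CPM in GRKO mice. Its log2 fold change between the genotypes of non-Paneth cells was 0.16 (adjusted p = 0.708). Of 5 secretory transcription factors, Atoh1 included, 2 were higher in GRKO than in WT non-Paneth cells, beside 17.5% of all genes. These were Neurog3 (log2 2.1, adjusted p = 0.00196) and Sox9 (log2 0.75, adjusted p = 0.000855). The part of stem, tuft, cycling, absorptive or enteroendocrine cells in the differences of the 8 genes between fractions was not tested.

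**Figure D5:**
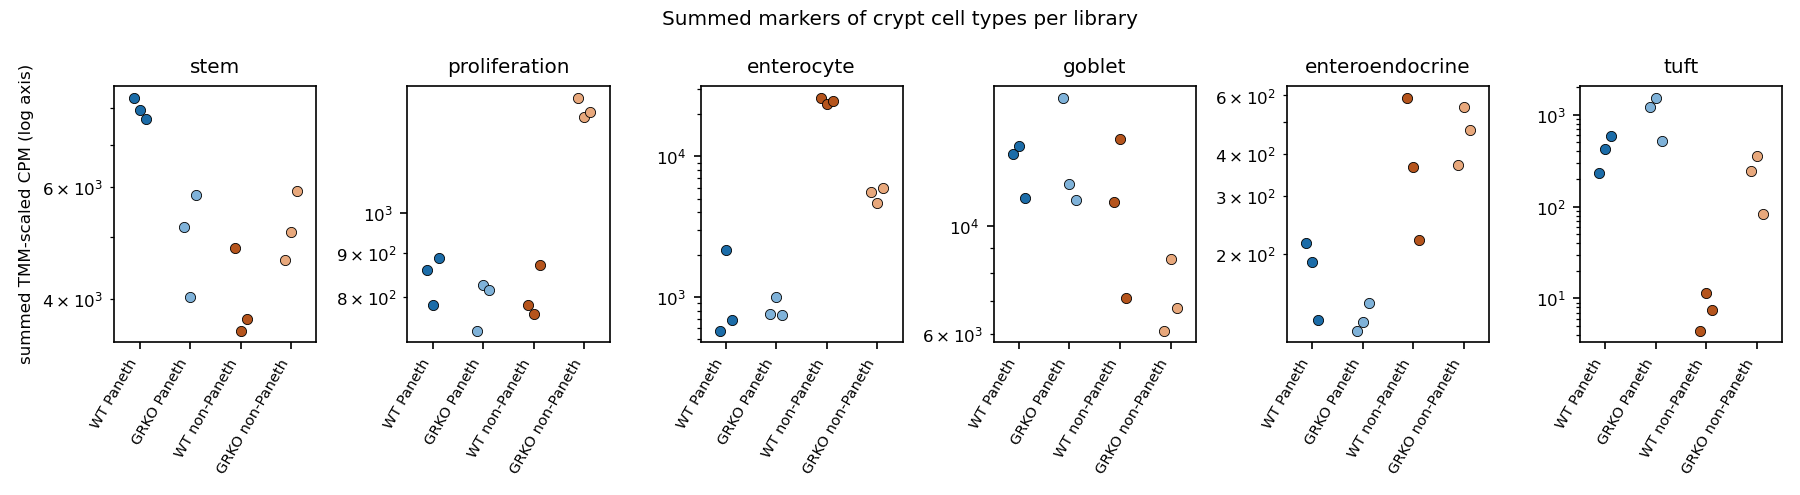
Summed TMM-scaled CPM of marker lists (vertical axis, log scale, which differs between panels) in each library of the 4 groups. The proliferation sum is highest in the 3 GRKO non-Paneth libraries, at 1290 to 1360 CPM, and the enterocyte sum is highest in the 3 WT non-Paneth libraries.

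The genes whose levels followed those of the 8 genes most closely were found by Pearson correlation of log2 CPM over the 12 libraries, among 8782 genes with a mean of at least 10 CPM. Since the 12 libraries fall into 4 groups, such values include the differences between groups, and they are given as a description. Nrarp was closest to Kif22 (r = 0.976), Cdca8 (r = 0.974) and Plp2 (r = 0.965), and Dll4 to St3gal1 (r = 0.976), Hgfac (r = 0.972) and Cblb (r = 0.969). Hes6 was closest to Mydgf, Gm32742 and Ptpn18 (r = 0.958 each), and Hes1 to Mfge8 (r = 0.934), Trmt1 (r = 0.921) and Dut (r = 0.908). Notch1 was closest to Nfia (r = 0.902), Clca3b (r = 0.901) and Arid5b (r = 0.897), and Notch2 to Mrtfb (r = 0.940), Cenpf and Hspg2 (r = 0.908 each). Jag1 was closest to Aph1a (r = 0.942), Duox2 (r = 0.938) and Gltp (r = 0.937), and Dll1 to Phf12 (r = 0.878), Slc25a42 (r = 0.823) and Dennd2b (r = 0.818). Among the 8 genes themselves, Notch2 and Nrarp (r = 0.79) and Dll4 and Hes6 (r = 0.74) were the most similar pairs, and Jag1 and Hes6 (r = -0.88) ran opposite.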

How the data were processed

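Single-end reads of stranded TruSeq libraries were trimmed with Trimmomatic 0.39 and aligned with STAR 2.7.10a to mm39 and an annotation called gencode v28 by the authors, who deposited raw counts per gene, without normalization. STAR counts reads that map once and overlap 1 gene, and the counted strand is not stated. Of 55414 genes, 54749 were named through GENCODE vM39. No library was left out.

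Tests used edgeR 4.0.16 under R 4.3.3 on these counts (TMM, filterByExpr, glmQLFit with robust estimates, glmQLFTest) in 1 fit over 12 libraries with a mean per group, and Benjamini-Hochberg adjustment over 13057 genes at 5%. SE are on the log2 scale. Alternatives were DESeq2 1.42.0, RLE factors, library totals, scaling without Lyz1 and Defa genes, testing without a filter, only the groups compared, a replicate block, and each library left out. The fits were tested on simulated data with 2-fold changes in 200 genes. Comparisons of 2 groups recovered 66 to 77% of them, and the interaction recovered 22.5%. Of the calls, 4 to 5.7% were false. After group means were removed, WT Paneth and non-Paneth libraries of 1 number correlated at 0.35, 0.23 and 0.24, above 0.1. The numbers were read as pairs there. The main fit and its p-values did not use these pairs, which entered only the alternative with a replicate block. No 2 libraries of a group agreed within sampling noise. Positions and promoters were read from GRCm39, the build of mm39. No batch is named in the labels, so that a batch that follows a group cannot be told apart from it.

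The named genes are the 8 genes, Nr3c1, up to 3 pathway genes past the threshold with the largest change per role and comparison, the 3 most similar genes for each of the 8, and marker genes. Rbpj, Atoh1, Neurog3, Sox9, Tek, Fam120b, Gm38287, Psen2 in the WT fractions and Numb in comparisons of 2 groups were added after their values were seen. Results of 1 gene of the wider list are not reported here. Members, lists and tests were chosen with earlier results of these data known.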

Additional observations from a re-analysis of the deposited data

Results flagged for a closer look

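For the genes below, from those named by the rule (up to 3 per role), the effect of the genotype (GRKO against WT) differed between Paneth and non-Paneth cells in the test of the difference itself (edgeR, 5% false discovery rate), where 18.7% of all genes tested did. In the wider pathway as a whole, 18 of 55 genes did, 10 with a higher and 8 with a lower effect in Paneth cells. By library totals 2 of 14 calls were higher, and the share of all genes given above is not for that scaling. Values are log2 differences, negative where the effect was lower in Paneth cells. Among the 8 genes they were -0.86 for Notch1 (adjusted p = 0.00765), -0.88 for Hes1 (adjusted p = 0.0186) and -0.75 for Nrarp (adjusted p = 0.0138). In the wider pathway, the effect was lower in Paneth cells for Olfm4 (-1.08), which is also on the stem cell list, for Lfng (-0.96), and for Hdac2 and Kat2a (-0.65 each). It was higher in Paneth cells for Aak1 and Rfng (1.15 each), Dtx3l and Numb (1.09 each), Kat2b (0.85), Furin (0.84) and Ncstn (0.59). Adjusted p for these genes of the wider pathway lay between 0.00265 and 0.0425. Groups of 3 libraries were too small to look for single outlying libraries.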

How the results depend on the processing

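Of 560 values of the 8 genes under alternatives, 505 stayed on their side of the threshold, 38 fell below it and 12 passed it. The other 5 changed direction with a call in the main fit or in the alternative. A change of sign without a call in either was counted among the 505. For example, Jag1 between the genotypes of non-Paneth cells kept its sign in 6 of 13 alternatives, without a call in any. The 5 came from scaling by library totals, with log2 fold changes between WT fractions of -0.28 for Notch1, -0.59 for Dll1 and -0.17 for Hes1, and between GRKO fractions of -0.64 for Dll1 and -0.25 for Hes6, where the median of all genes moved as well. For GRKO against WT non-Paneth cells, 4 of the 8 genes were called, and 2 with DESeq2, with RLE factors or with Lyz1 and Defa genes left out of the scaling. Leaving out 1 library gave 1 to 2 there, 3 to 5 for the WT fractions (3 without WT Paneth replicate 1), 3 to 5 for the GRKO fractions (3 without GRKO non-Paneth replicate 1), 0 to 0 in Paneth cells and 2 to 4 for the interaction. In the wider pathway, GRKO against WT Paneth cells gave 2 calls, but 6 with DESeq2, 7 without the filter, 0 by library totals, 0 with only the groups compared and 0 to 8 with 1 library left out. The GRKO fractions gave 28, or 48 by library totals and 19 to 26 with 1 library left out, the WT fractions 32 to 37 instead of 37, GRKO against WT non-Paneth cells 10 to 16 instead of 23, and the interaction 12 to 18 instead of 18. The causes were not tested.

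With a replicate block, 5 of the 8 genes were called between the WT fractions, as without it. Outside the WT fractions the libraries share only a number: between the GRKO fractions, same-numbered libraries correlated at 0.013, 0.26 and 0.47, and the block gave 7 calls instead of 5, with Jag1 (adjusted p = 0.0438) and Hes1 (adjusted p = 0.037) added. Between genotypes it gave 3 calls instead of 4 in non-Paneth cells (Notch2, adjusted p = 0.0532) and 6 instead of 2 genes of the wider pathway in Paneth cells. The block changed no other call among the 8 genes. Depth limits Jag1 most, with as few as 51 counts in a library.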
